A study of Homo sapiens with 18 samples.

Results

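Small RNA from the nuclear (nuc) and cytoplasmic (cyto) fractions of SSB-depleted HEK293T cells was compared to ask where each small RNA lay in the cell when La was reduced. HEK293T is an established human embryonic kidney line, and SSB is the gene of the La protein. The comparison used 6 of the 18 libraries of the series, 3 siSSB nuc and 3 siSSB cyto, chosen by the fraction and siRNA in their titles. All cells had been transfected with an siRNA by the same lipid reagent for 48 h, and every library carried the label of a polynucleotide kinase (PNK) step. The 6 nuc and cyto libraries of cells given a scramble siRNA (control) entered only the test of whether a nuclear to cytoplasmic difference changed with SSB depletion. The replicates were stated to be biological, and no group had a genetic change or a second agent. The table lists noncoding RNA, so SSB mRNA was not analysed here and the depletion itself was not checked.

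La binds the run of U at the 3′ end of newly made RNA polymerase III transcripts, such as tRNA precursors, Y RNA, 5S rRNA, U6, 7SL and snaR-A, and shields them while they mature. C/D and H/ACA small nucleolar RNAs (snoRNAs) guide methylation and pseudouridylation of rRNA in the nucleolus, and scaRNAs do the same for spliceosomal RNA in Cajal bodies. Mature tRNA, Y RNA and vault RNA are known mainly as cytoplasmic, as are mature miRNAs, which are cut from a hairpin in the nucleus (by Drosha) and then in the cytoplasm (by Dicer) before one arm guides an Argonaute protein.

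The sequences below are of genes named in the results. They come from the hg38 genome, without the 25-nt flanks that the counted windows add to each side, and, for mature miRNAs, from RefSeq (GRCh38.p14). The first pair are the C/D snoRNAs SNORD48 (chr6:31835263-31835326, + strand) and SNORD36B (chr9:133350095-133350168, + strand), near the top and near the bottom of the C/D order. Capitals mark TGATGA in the first 25 nt and CTGA in the last 25 nt, letters of the C and D boxes, and SNORD36B held no TGATGA there.
SNORD48: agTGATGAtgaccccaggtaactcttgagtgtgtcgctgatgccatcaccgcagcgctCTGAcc
SNORD36B: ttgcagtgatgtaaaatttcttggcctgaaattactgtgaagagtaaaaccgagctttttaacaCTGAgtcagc

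The H/ACA snoRNAs SNORA47 (chr5:77080434-77080571, − strand, in an intron of ZBED3) and SNORA62 (chr3:39411054-39411206, + strand, in RPSA) hold the same places in the H/ACA order. Capitals mark ACA in the last 8 nt.
SNORA47: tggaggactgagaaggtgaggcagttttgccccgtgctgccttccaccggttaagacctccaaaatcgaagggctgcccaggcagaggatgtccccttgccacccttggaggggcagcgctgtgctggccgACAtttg
SNORA62: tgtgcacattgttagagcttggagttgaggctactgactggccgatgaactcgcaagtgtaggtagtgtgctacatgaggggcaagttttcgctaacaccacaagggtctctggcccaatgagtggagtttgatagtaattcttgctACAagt

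Y RNA was the class lowest in the nucleus, and 3 of its genes, all on chromosome 7, are shown. Capitals mark the T at the 3′ end of the annotated gene, which may not be the end of the transcript. La binds the run of U at the 3′ end of such transcripts.
RNY1: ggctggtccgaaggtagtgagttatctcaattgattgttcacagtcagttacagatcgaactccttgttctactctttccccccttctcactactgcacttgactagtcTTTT
RNY4: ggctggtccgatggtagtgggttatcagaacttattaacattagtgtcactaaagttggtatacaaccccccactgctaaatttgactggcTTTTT
RNY5: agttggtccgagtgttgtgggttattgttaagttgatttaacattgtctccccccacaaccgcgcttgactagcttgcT

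Among tRNA genes, tRNA-Val-CAC-8-1 (chr1:145161108-145161178, + strand) and tRNA-Tyr-GTA-3-1 (chr6:26577104-26577192, + strand) stood high in the nucleus, and tRNA-Gly-GCC-5-1 (chr16:70788694-70788764, + strand) and tRNA-His-GTG-2-1 (chr1:143661182-143661253, − strand) stood low. Capitals mark the anticodon. Tyrosine tRNA genes carry an intron, which is included in the tRNA-Tyr-GTA-3-1 sequence.
tRNA-Val-CAC-8-1: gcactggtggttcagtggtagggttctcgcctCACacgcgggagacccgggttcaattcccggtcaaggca
tRNA-Tyr-GTA-3-1: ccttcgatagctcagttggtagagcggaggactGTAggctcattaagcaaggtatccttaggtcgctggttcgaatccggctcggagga
tRNA-Gly-GCC-5-1: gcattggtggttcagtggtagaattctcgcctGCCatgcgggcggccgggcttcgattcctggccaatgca
tRNA-His-GTG-2-1: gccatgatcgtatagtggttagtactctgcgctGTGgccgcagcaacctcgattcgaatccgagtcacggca

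The miRNAs of the MIR17HG and MIR15A–MIR16-1 clusters, both on chromosome 13, held 3 of the 5 miRNA features called higher in nuc. Capitals mark the seed, bases 2 to 8 of the mature miRNA. The seed AAAGUGC was shared by miR-17-5p and miR-20a-5p, GUGCAAA by miR-19a-3p and miR-19b-3p, and AGCAGCA by miR-15a-5p and miR-16-5p.
hsa-miR-17-5p: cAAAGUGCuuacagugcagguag
hsa-miR-20a-5p: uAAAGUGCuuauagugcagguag
hsa-miR-18a-5p: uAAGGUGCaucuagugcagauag
hsa-miR-19a-3p: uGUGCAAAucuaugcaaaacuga
hsa-miR-19b-3p: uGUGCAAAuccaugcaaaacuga
hsa-miR-92a-3p: uAUUGCACuugucccggccugu
hsa-miR-15a-5p: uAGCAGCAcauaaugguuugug
hsa-miR-16-5p: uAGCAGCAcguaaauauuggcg

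The 3 cyto libraries had column sums of 24842041 to 28975535 counts, and the 3 nuc libraries of 98928007 to 122706550. Since a read was counted in each feature it overlapped, these are not numbers of reads, and the sum over 19 RNA classes, with overlapping or identical windows taken once, was 4301721 to 5055763 in cyto and 5793610 to 6557866 in nuc. Library siSSB nuc 2 stood apart from the other nuclear libraries, with a deviation from the group mean of 0.308 log2 units (SD over features) against 0.228 and 0.235, and with higher 7SL, RMRP and RPPH1. All pairs of replicates differed by more than sampling noise. The 11 miRNA genes fixed as markers of liver, muscle, neuron and blood summed to 10, 11 and 29 counts in siSSB cyto, at most 0.0124% of the miRNA counts, and to 0 in each siSSB nuc library.

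A value between fractions is relative to the scaling. With TMM (trimmed mean of M values) factors, which were 3.51 to 4.05 in cyto and 0.228 to 0.349 in nuc, the median log2 fold change of nuc against cyto over all features tested was −0.19. Scaling by the column sum moved that median by −3.76, by the RNA class sum by −2.16, by the summed snoRNA by −5.80 and by the summed miRNA by 2.57, whereas DESeq2 size factors moved it by −0.03. Higher and lower below therefore mean relative to the TMM scaling, and the order of features, and values relative to the other members of a class, are given beside them. Values are log2 fold changes of nuc against cyto ± standard error (SE), levels are CPM, counts relative to the TMM-scaled library size, as mean ± SD with n = 3, and adjusted p-values come from edgeR.

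The nuclear libraries were dominated by C/D snoRNA and the cytoplasmic ones by rRNA, tRNA and Y RNA. Of the counts of all classes, C/D snoRNA took 5.68% ± 1.03 (SD, n = 3) in the cytoplasm and 72.1% ± 5.88 in the nucleus, while H/ACA snoRNA took 0.180% ± 0.0303 and 2.66% ± 0.659. Y RNA went from 8.17% ± 0.541 in cyto to 0.107% ± 0.0221 in nuc, tRNA from 14.4% ± 1.504 to 0.798% ± 0.0803, and miRNA from 3.79% ± 2.10 to 0.116% ± 0.0144. The share of rRNA other than 5S (47.0% ± 1.00 and 12.4% ± 3.60) and of 5S rRNA (10.5% ± 2.08 and 4.05% ± 0.850) was also lower in nuc, while that of snRNA other than U6 was close in both (6.23% ± 0.857 and 7.10% ± 1.22).

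On the TMM scale, 16 of 19 class totals passed an adjusted p of 0.05, 10 higher in nuc and 6 lower. The order ran from H/ACA snoRNA (6.07 ± 0.34) and C/D snoRNA (5.91 ± 0.37) through scaRNA (2.62 ± 0.30), 7SL (2.58 ± 0.37), other snRNA (2.40 ± 0.29), snaR-B to snaR-I (2.17 ± 0.45), RMRP (2.07 ± 0.34), RPPH1 (1.92 ± 0.36), U6 (1.89 ± 0.29) and 5S rRNA (0.85 ± 0.29) to the classes that did not pass, other rRNA (0.26 ± 0.27, adjusted p = 0.379), snaR-A (−0.05 ± 0.37, adjusted p = 0.897) and the tRNA-like tRX genes (−0.57 ± 0.32, adjusted p = 0.0989). The lower classes were 7SK (−1.27 ± 0.29), mitochondrial tRNA (−1.30 ± 0.27), tRNA (−1.92 ± 0.29), vault RNA (−2.58 ± 0.30), miRNA (−2.81 ± 0.35) and Y RNA (−3.99 ± 0.33). The H/ACA and C/D totals stayed positive and the Y RNA total negative under each of the 6 scalings, although both snoRNA totals were then near 0 when the summed snoRNA was the scale (0.24 and 0.01). The totals of scaRNA, 7SL, other snRNA, RMRP, RPPH1, U6, 5S rRNA, other rRNA and snaR-B to snaR-I turned negative when the column sum or the summed snoRNA was the scale, all but the first 3 of them also when the class sum was, and those of tRNA, tRX, mitochondrial tRNA, vault RNA, 7SK and snaR-A turned positive when the summed miRNA was.

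**Figure D1:**
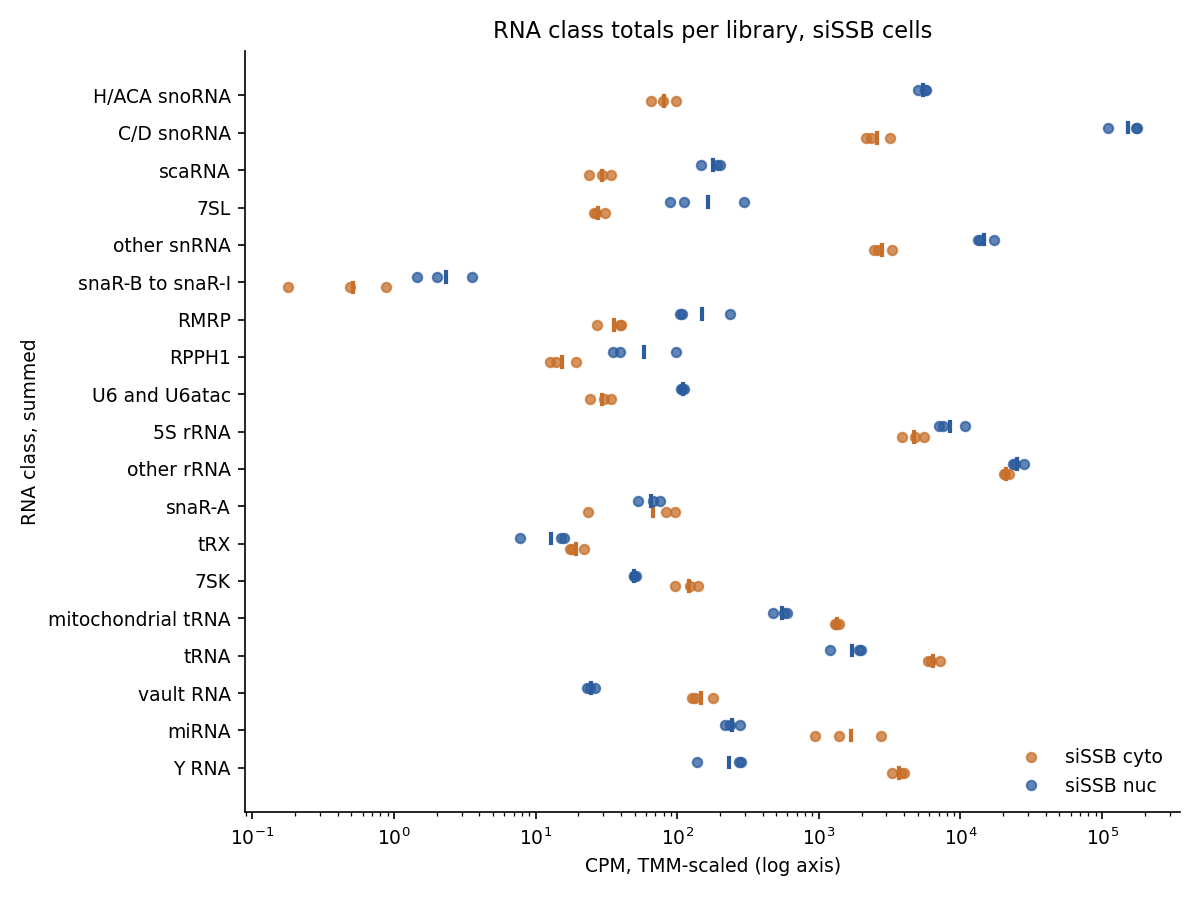
Summed counts of 19 RNA classes in the 3 siSSB cyto and 3 siSSB nuc libraries, in CPM scaled by TMM on a log axis; points are libraries and bars their means. C/D snoRNA lay at 2553.6 CPM on average in cyto and 153348 in nuc, Y RNA at 3669 and 231; directions of the classes between snoRNA and Y RNA depend on the scaling.

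The fraction labels were checked against RNAs of known place. Of the nuclear RNAs, the C/D, H/ACA, scaRNA and U6 totals were higher in nuc (scaRNA and U6 not under every scaling, as given above). The long nuclear RNAs were not called: MALAT1 (652, 649 and 662 counts in cyto, 244, 328 and 234 in nuc) gave 0.50 ± 0.31 (adjusted p = 0.251) and NEAT1 0.79 ± 0.31 (adjusted p = 0.0642). Their CPM did not overlap between fractions. Of the RNAs known as cytoplasmic, mitochondrial tRNA, tRNA, vault and Y RNA were lower in nuc. Against their usual place, 7SK, a nuclear regulator of P-TEFb, was lower in nuc (RN7SK 11129, 11568 and 13256 counts in cyto, 1371, 1700 and 1271 in nuc), and 7SL, the RNA of the signal recognition particle, was higher. The 7SL total was 3036, 2893 and 2540 in cyto and 2486, 10281 and 2803 in nuc, and without siSSB nuc 2 its value was 1.90. RMRP (2.07, and 1.63 without that library) and RPPH1 (1.92, and 1.34), the RNAs of RNase MRP and RNase P, moved with it. Of the other RNAs fixed as markers, SNORD3A and SCARNA2 (nuclear) were higher in nuc, though not under every scaling. RNU7-1 (nuclear) was lower and MT-RNR2 (cytoplasmic) was higher, again against their usual place, with values and limits given below.

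Over all features, 6655 of 26274 tested were called (25.3%), 2854 higher in nuc (10.9%) and 3801 lower (14.5%). The RNA classes below are to be read against these shares. A feature that reached the count filter in only one fraction had to differ, so the counts describe the tested members of each class and not all of them. The filter was also uneven. It was set relative to column sums, which were larger in nuc, so fewer counts were needed to pass in cyto. This favours low-count features that are lower in nuc, in the counts called lower and in the class medians. In a second fit the scale was the class itself, with TMM factors of its own members, so that a value is relative to a class reference. That reference gives more weight to features with more counts and is not the median member. There 766 of 1664 features were called (46.0%), which says that members of one class spread between the fractions by more than the replicates did.

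**Figure D2:**
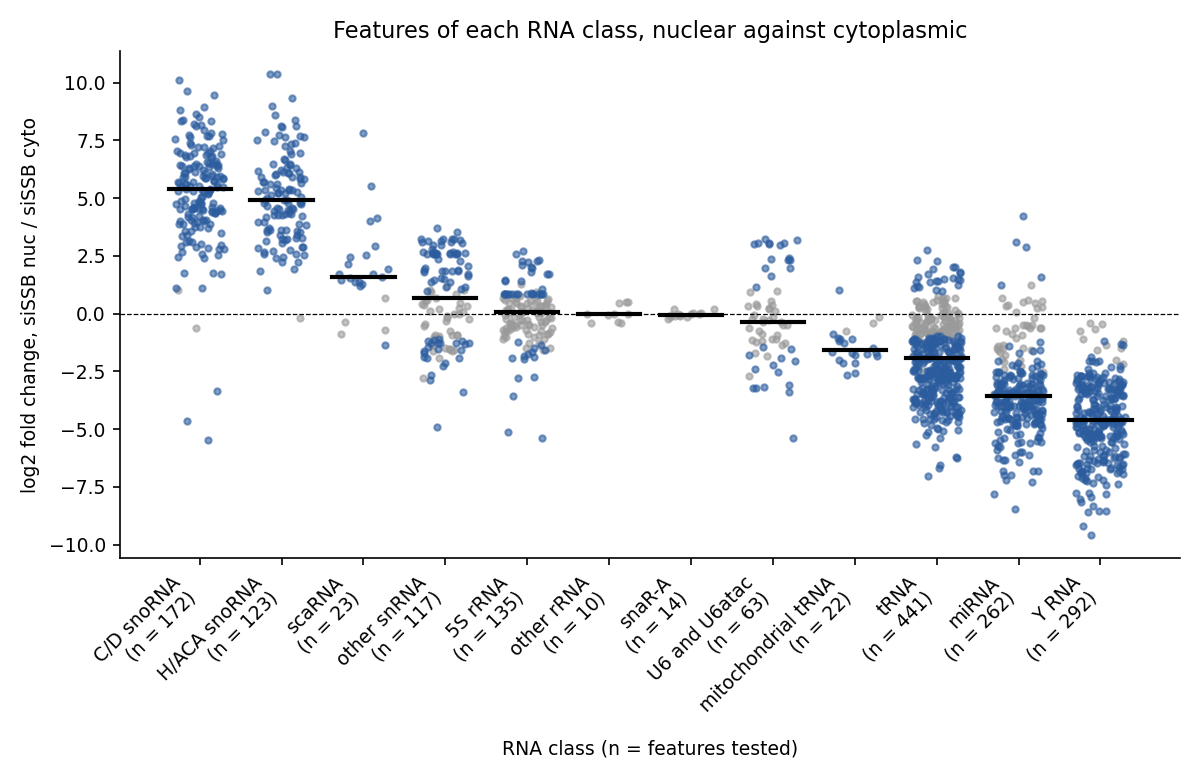
Log2 fold change of nuc against cyto for each tested feature in the classes with at least 10 tested, ordered by class; blue points had an adjusted p under 0.05, grey points did not, and the black bar is the class median. The C/D snoRNA median was 5.40 and that of Y RNA −4.62, with medians of the classes between them on either side of 0 depending on the scaling.

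Of 242 distinct C/D snoRNAs in the table, 172 were tested, of which 167 were higher in nuc, 3 were lower and 2 were not called. Their median was 5.40, beside −0.19 over all features. SNORD48 had 296, 225 and 218 counts in cyto and 72697, 93463 and 65750 in nuc. Every nuclear library lay far above every cytoplasmic one, at 2640 ± 65.0 CPM against 2.40 ± 0.127, a difference of 10.10 ± 0.39 (adjusted p = 5.71e-15). Next came SNORD83A (8.95 ± 0.38), in an intron of RPL3, and SNORD32A (8.83 ± 0.40), in RPL13A.

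SNORD48, SNORD83A and SNORD32A also led relative to the C/D reference, by 4.96 ± 0.23, 3.83 ± 0.21 and 3.70 ± 0.19. At the other end SNORD36B had 727, 616 and 960 counts in cyto and 1073, 347 and 697 in nuc. Its raw counts overlapped, and its CPM (7.61 ± 2.13 in cyto, 25.3 ± 14.2 in nuc) did not, giving 1.73 ± 0.38, and −3.49 ± 0.36 relative to the class. The CPM of siSSB nuc 2 and siSSB cyto 3 were nearly equal, so the separation was very narrow. SNORD169 (2.40 ± 0.40) and SNORD3C (1.11 ± 0.31, −4.03 ± 0.27 within the class) were the other low members by the naming rule. The SNORD3C call was lost without siSSB cyto 1 (0.90). SNORD3C is a copy of U3, which takes part in cleavage of the rRNA precursor.

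The U3 gene SNORD3A, whose window is over 500 nt and enters no class, gave 3.38 ± 0.32. Another snoRNA of rRNA processing, SNORD118 (U8), had 1661, 2279 and 1991 counts in cyto and 14707, 11677 and 10713 in nuc (4.44 ± 0.34), 0.68 ± 0.18 below the C/D reference. SNORD13 (U13), which acts on 18S rRNA, gave 7.27 ± 0.38 and stood 2.16 ± 0.22 above it. SNORD3A and SNORD118 turned negative when the summed snoRNA was the scale, and SNORD3A also when the column sum was. Features with a C/D name that were not higher in nuc, named after their values were seen, were SNORD89 (14, 22 and 13 counts in cyto, 5, 9 and 15 in nuc, 1.05, adjusted p = 0.115), the 3 copies of SNORD141A (−0.61, not called, −3.35 and −5.46) and the U3 pseudogene SNORD3P3 (−4.65), all with under 60 counts in every library. None of the imprinted C/D snoRNAs fixed as a list passed the count filter.

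Of 196 distinct H/ACA snoRNAs, 123 were tested, and 122 were higher in nuc (median 4.93). SNORA47 had 13, 3 and 8 counts in cyto and 2547, 4975 and 2064 in nuc. It was the most nuclear of all class features (10.38 ± 0.50, adjusted p = 2.11e-14) and stood 5.64 ± 0.43 above the H/ACA reference. SNORA80B, in an intron of ODC1, followed with 9.35 ± 0.47 from 3, 4 and 3 cytoplasmic counts, and SNORA2C, in an intron of KANSL2, with 8.58 ± 0.41. SNORA62 had 114, 152 and 138 counts in cyto and 159, 137 and 152 in nuc, nearly equal before scaling, and gave 1.95 ± 0.34 and −2.75 ± 0.31 within the class. SNORA53 (2.26 ± 0.34) and SNORA71B (2.41 ± 0.35) were beside it. The one tested H/ACA feature that was not called was a copy of SNORA79 on chromosome 14 (54, 72 and 88 counts in cyto, 17, 22 and 16 in nuc, −0.19 ± 0.36), named after its values were seen.

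The snoRNA names were compared with their sequences. TGATGA in the first 25 nt together with CTGA in the last 25 nt was found in 100 of the 172 tested C/D windows (58.1%) and in 1 of the 123 H/ACA windows (0.813%), on the annotated strand. ACA in the last 8 nt was found in 114 H/ACA windows (92.7%) and 15 C/D windows (8.72%). A missing match says only that these letters are not in that stretch.

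snoRNAs cut from introns of one host gene did not share one value. Of 257 snoRNAs and scaRNAs with a mean of at least 50 counts, 247 lay inside another gene on the same strand, and 58 host genes held at least 2. Within a host the log2 fold changes spanned 2.02 in the median, from 0.0546 to 4.65. SNHG1 held 8, from SNORD28 (83, 94 and 57 counts in cyto, 364, 236 and 358 in nuc, 3.88 ± 0.38) to SNORD31 (787, 928 and 762 in cyto, 97762, 76551 and 84659 in nuc, 8.53 ± 0.39). These lie apart by far more than their SE, and relative to the class one was 1.28 ± 0.30 below and the other 3.38 ± 0.17 above. RPL13A held SNORD33 (4.18 ± 0.36) and SNORD32A (8.83), and RPL7A held SNORD36B (1.73) and SNORD36A (5.89 ± 0.39). GAS5 held 11, from SNORD78 (4.55 ± 0.35) to SNORD74 (7.56 ± 0.38). One of these, SNORD44, was the most counted of them in either fraction, with 78563, 89212 and 62339 counts in cyto and 1447932, 1063729 and 1274923 in nuc (5.87 ± 0.37). The 10 snoRNAs and scaRNAs without a host by this rule had a median of 3.02, against 5.37 for those with a host. Differences between members of a host were not tested.

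Of 23 tested scaRNAs, 18 were higher in nuc and 1 was lower, with a median of 1.57. SCARNA20 had 37, 46 and 21 counts in cyto and 2246, 3138 and 1510 in nuc (7.81 ± 0.43). SCARNA22 (5.54 ± 0.39) and SCARNA8 (4.15 ± 0.40) followed, and these 3 stood 5.86 ± 0.33, 3.61 ± 0.29 and 2.22 ± 0.37 above the scaRNA reference. SCARNA14 had 478, 330 and 573 counts in cyto and 69, 42 and 42 in nuc and was the lower member (−1.35 ± 0.36, and −3.28 ± 0.33 within the class). SCARNA28 (−0.89 ± 0.36, adjusted p = 0.0711) and SCARNA16 (−0.72 ± 0.33, adjusted p = 0.114) did not pass, but both lay below the class, by −2.82 ± 0.33 and −2.63 ± 0.28. The Cajal body RNA SCARNA2 gave 1.57 ± 0.32, turning negative when the column sum, the class sum or the summed snoRNA was the scale. SCARNA9 (1.26 ± 0.33) and SCARNA6 (1.21 ± 0.35) were the lowest by the naming rule that were still higher in nuc. Without siSSB cyto 1 both calls were lost (1.04 and 0.999), without siSSB cyto 2 that of SCARNA6 (1.05), and without siSSB nuc 2 that of SCARNA14 (−1.08).

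Among 117 tested features of snRNA other than U6, 53 were higher and 24 lower, with a median of 0.67. RNU11, the U11 RNA that reads 5′ splice sites of minor introns, had 1806, 2351 and 1577 counts in cyto and 8344, 8333 and 5399 in nuc (3.72 ± 0.32) and led the class. The variant U1 gene RNVU1-31 (3.56 ± 0.33) and RNU1-1 (3.22 ± 0.32) came next, with the most counted U5 copy, RNU5E-1, at 3.08 ± 0.32 and RNU4ATAC at 2.81 ± 0.34. RNVU1-2A, 1.55 ± 0.38 above the class, was 0.91 above it without siSSB nuc 2. Lower on the scale were the most counted U2 copy (1.63 ± 0.28), RNU4-1 (1.15 ± 0.30) and RNU12 (1.06 ± 0.28), which was 0.59 ± 0.19 below the class reference though above the class median. The RNU12 call was lost without siSSB cyto 1 or siSSB cyto 3 (0.91 in each). The values of these U1, U2, U4, U5, U11, U12 and U4atac features turned negative when the column sum or the summed snoRNA was the scale.

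RNU7-1 encodes U7, which acts in 3′ end processing of histone mRNA in the nucleus, and lay on the other side. It had 3891, 2088 and 4530 counts in cyto and 384, 269 and 411 in nuc, −1.45 ± 0.34 (adjusted p = 0.00208) and −3.21 ± 0.37 relative to the class, turning positive only when the summed miRNA was the scale. A U2 copy on chromosome 9 (8379, 7171 and 11097 counts in cyto, 468, 205 and 350 in nuc) gave −2.86 ± 0.36. U1 copies on chromosomes 18 and 13 gave −2.28 ± 0.45 and −2.65 ± 0.46. Since copies of a family share reads, a single copy is uncertain.

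For U6, 16 of 63 tested features were higher and 14 lower. RNU6-1 on chromosome 19 had 147, 121 and 131 counts in cyto and 315, 371 and 281 in nuc (3.08 ± 0.33), and RNU6-9 gave 3.03 ± 0.34. Copies with more counts had higher values: over the 63, Spearman's rho between the log2 fold change and the mean count was 0.780, and over the 14 with a mean of at least 50 counts it was 0.960. These points share libraries and, being near-identical copies, reads, and the mean count itself includes the nuclear libraries. The count filter also let in low-count copies more easily from cyto, which adds to such a correlation over the 63. Both RNU6-1 and the U6 total turned negative when the column sum or the summed snoRNA was the scale.

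Of 135 tested 5S rRNA features, 32 were higher, 15 lower and 88 not called. The most counted copy, on chromosome 6, had 50713, 32490 and 29184 counts in cyto and 21814, 12771 and 10916 in nuc, which was not called (0.54 ± 0.31, adjusted p = 0.211). By the naming rule, which asks for a mean of at least 50 counts, copies on chromosome 3 were highest (2.59 ± 0.32, 2.32 ± 0.32 and 2.28 ± 0.32), and copies on chromosomes 6, 12 and 1 were lowest (−1.37 ± 0.38, −1.58 ± 0.34 and −1.83 ± 0.39). The call of the copy on chromosome 6, 5S_rRNA_rRNA_URS000068F190, was lost without siSSB nuc 2 (−1.02). None of the 10 tested features of 28S, 18S and 5.8S rRNA was called, with values from −0.39 to 0.52. The call of the 5S total was lost without siSSB cyto 3 (0.70) or siSSB nuc 1 (0.69).

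Of the remaining RNAs, TERC, the telomerase RNA, had 31, 35 and 36 counts in cyto and 25, 55 and 22 in nuc (1.74 ± 0.36, and 1.44 without siSSB nuc 2). The 3 genes of 7SL gave 2.89 ± 0.38 (RN7SL1), 2.64 ± 0.42 (RN7SL2) and 1.78 ± 0.33 (RN7SL3). For snaR-A, the RNA the series is about, the 14 windows summed to 9633, 9093 and 2223 counts in cyto and 1490, 2331 and 1892 in nuc. The groups overlapped in CPM, siSSB cyto 3 was far below the other cytoplasmic libraries, and without it the value was −0.49 (adjusted p = 0.167). None of the 14 single windows was called, with values from −0.22 to 0.22, and the most counted, SNAR-A14, had 1353, 1283 and 317 counts in cyto and 229, 341 and 290 in nuc.

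Y RNA was the class furthest toward the cytoplasm: of 292 tested features 280 were lower in nuc and 0 were higher, with a median of −4.62. Y RNAs bind Ro60 and La. RNY4 had 97045, 92309 and 90018 counts in cyto and 1804, 966 and 1605 in nuc (−4.14 ± 0.35), and RNY1 had 69926, 72111 and 73858 in cyto and 989, 620 and 843 in nuc (−4.63 ± 0.35). For both the groups were far apart, and siSSB nuc 2 held the lowest nuclear count. RNY3 (10223, 7241 and 6462 in cyto, 351, 250 and 308 in nuc) and RNY5 (37914, 41736 and 32796 in cyto, 1847, 982 and 1221 in nuc) gave −2.86 ± 0.32 and −2.96 ± 0.33.

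Within the class the canonical genes split: relative to the class reference, RNY1 was 1.27 ± 0.16 below and RNY4 0.82 ± 0.17 below (adjusted p = 7.97e-06 and 0.000749), while RNY3 was 0.49 ± 0.19 above (adjusted p = 0.0479) and RNY5 0.37 ± 0.19 above (adjusted p = 0.124). By the class median of −4.62, RNY1 (−4.63) lay at the middle and RNY4 (−4.14) above it. The call of RNY3 was lost when 1 library was left out in 5 of 6 cases. The annotated genes printed above end in a run of 4 T in RNY1 and 5 T in RNY4, and in a single T in RNY5. Most of the other tested Y RNA features are copies at other sites and share reads with these genes, and the lowest by the naming rule, on chromosome 17, had 117, 48 and 139 counts in cyto and 0, 1 and 0 in nuc.

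Vault RNAs, the small RNAs of vault particles, were lower in nuc for VTRNA1-2 (14442, 10932 and 15992 counts in cyto, 635, 689 and 532 in nuc, −2.68 ± 0.30) and VTRNA1-1 (1147, 941 and 1069 in cyto, 95, 88 and 69 in nuc, −1.84 ± 0.32). VTRNA1-3 had 31, 26 and 40 counts in cyto and 12, 11 and 6 in nuc and was not called (0.05 ± 0.39, adjusted p = 0.949). VTRNA2-1, with at most 5 counts in a library, was not tested. Of 6 tested tRX features, which resemble tRNA genes but lack an assigned anticodon, 3 were lower, among them tRX-Glu-NNN-2-1 (850, 1035 and 704 counts in cyto, 41, 68 and 71 in nuc, −2.04 ± 0.35).

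Of the 22 mitochondrial tRNAs, which are made and used inside mitochondria, 18 were lower in nuc, 1 was higher and 3 were not called. MT-TT (4744, 5136 and 4681 counts in cyto, 224, 250 and 186 in nuc) was lowest with −2.67 ± 0.31, beside MT-TP (−2.59 ± 0.30) and MT-TH (−2.15 ± 0.30). MT-TV had 9598, 8418 and 9417 counts in cyto and 5823, 5099 and 4972 in nuc, and it was higher in nuc after scaling (1.03 ± 0.28, adjusted p = 0.00707) and 2.33 ± 0.21 above the class reference. MT-TL1 (−0.16 ± 0.29) came next, 1.15 above the class, then MT-TS1 (−0.41 ± 0.32), 0.86 ± 0.24 above it. The windows of MT-TV (chrM:1577-1695) and MT-TL1 (from chrM:3205) overlap the window of MT-RNR2 (chrM:1646-3254), the large mitochondrial rRNA, which had 65933, 78511 and 62633 counts in cyto and 25832, 77970 and 24910 in nuc (1.02 ± 0.33, adjusted p = 0.0212). Without siSSB nuc 2 the MT-RNR2 value was 0.53 (adjusted p = 0.17), and its call was also lost without siSSB cyto 1 or siSSB cyto 3. That of MT-TV was lost without siSSB cyto 1 (0.88, adjusted p = 0.0744). A read in the shared bases was counted for both, and the part of this in the MT-TV value was not tested.

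tRNA genes were mostly lower in nuc, but not evenly. Of 492 distinct features 441 were tested, of which 295 were lower, 24 higher and 122 not called (median −1.92). Within the class 113 were above the tRNA reference and 133 below. tRNA-Val-CAC-8-1 had 158, 222 and 144 counts in cyto and 252, 277 and 211 in nuc (2.28 ± 0.34) and stood 4.01 ± 0.37 above the class. tRNA-Val-AAC-6-1 (2.01 ± 0.33) and tRNA-Tyr-GTA-3-1 (171, 159 and 170 in cyto, 167, 203 and 175 in nuc, 1.93 ± 0.32) were next by the naming rule. The other 2 genes printed above were at the far end. tRNA-Gly-GCC-5-1 had 4546, 3281 and 5388 counts in cyto and 26, 17 and 24 in nuc (−5.79 ± 0.40), and tRNA-His-GTG-2-1 had 189, 110 and 212 in cyto and 1, 1 and 2 in nuc (−5.13 ± 0.55). tRNA-Ser-AGA-3-1 gave −4.71 ± 0.41.

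By amino acid, the composition of tRNA counts differed between the fractions. Histidine tRNA took 3.34% ± 0.465 of tRNA counts in cyto and 0.623% ± 0.0509 in nuc, and glycine tRNA 23.2% ± 0.864 and 9.69% ± 0.502. Aspartate tRNA took 26.3% ± 5.98 in cyto and 41.8% ± 2.52 in nuc, and phenylalanine tRNA 0.135% ± 0.00557 and 0.679% ± 0.146, a ratio of 5.04. The libraries did not overlap in any of these 4 shares. All 10 tested histidine genes were lower in nuc (median −4.68) and below the tRNA reference, as were all 15 glycine genes with the anticodon GCC (median −4.20). Valine genes were lower in 29 of 33, with 3 higher, so the valine genes named above lie against most of their own family. The same holds for tyrosine, where 10 of 13 genes were lower (median −1.49) and only tRNA-Tyr-GTA-3-1 was higher. Of 11 phenylalanine genes 5 were higher and 1 lower (median 0.04), and 9 were above the tRNA reference. Serine genes split by anticodon: all 10 with AGA and all 4 with TGA were lower (medians −4.05 and −3.98), while of 8 with GCT 0 were lower and 1 was higher (median −0.32). Genes of one anticodon share reads, so these counts are not of independent genes.

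**Figure D3:**
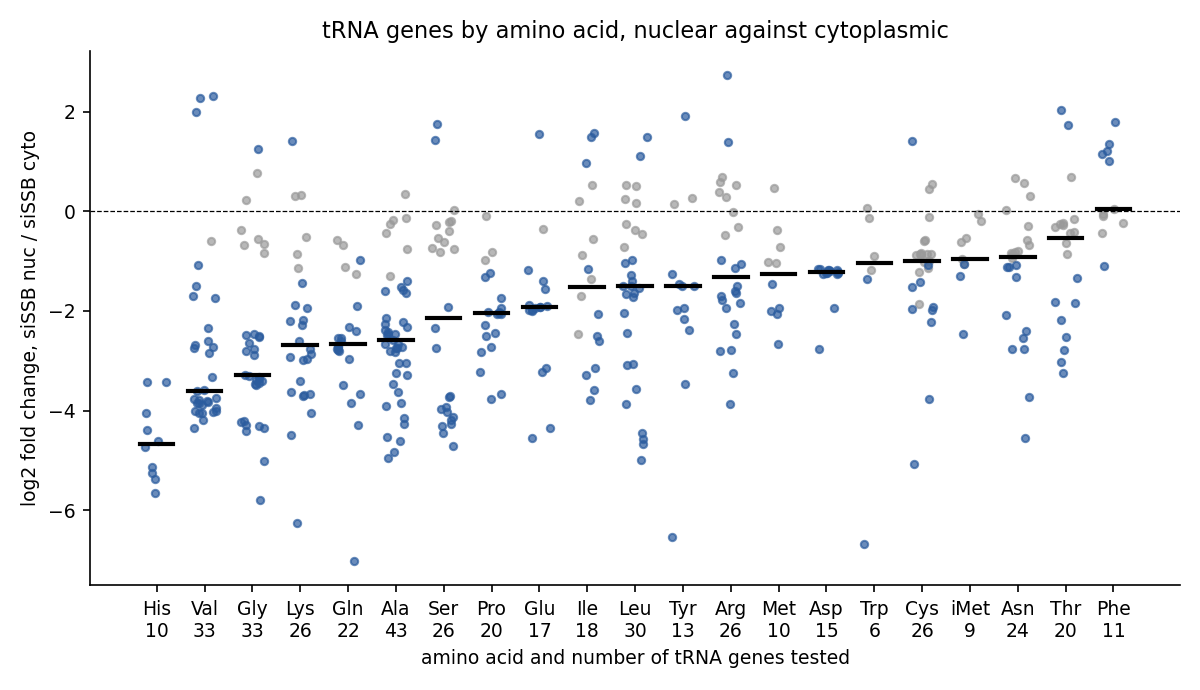
Log2 fold change of nuc against cyto of each tested tRNA gene, by amino acid for those with at least 3 tested; blue points had an adjusted p under 0.05 and black bars are medians. Medians ran from −4.68 for histidine to 0.04 for phenylalanine, and all shift together with the scaling.

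miRNA features were lower in nuc in 217 of 262 tested and higher in 5, with a median of −3.56. The miRNA total was 162450, 88511 and 262935 counts in cyto and 6582, 7474 and 6972 in nuc. It left out 32 features that carry a miRNA name but lie on snoRNA, rRNA or another class, of which 21 were higher in nuc. With those kept the total gave −0.19 (adjusted p = 0.544), so its size and its call rest on that choice. Examples are MIR1291 (202, 339 and 187 counts in cyto, 26261, 32578 and 23137 in nuc, 8.58), whose counts are those of SNORA2C, and MIR664A (5.40).

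The most counted miRNA genes were lower. MIR148A had 20883, 7763 and 49750 counts in cyto and 442, 442 and 417 in nuc (−4.12 ± 0.47), and MIR222 gave −4.82 ± 0.37. Of the MIR10 genes fixed as a list, MIR10A had 11653, 5657 and 21769 counts in cyto and 200, 155 and 195 in nuc (−4.33 ± 0.42), and MIR10B gave −4.50 ± 0.45. All 12 tested genes of the let-7 family were lower, from MIRLET7I (488, 242 and 624 in cyto, 25, 27 and 15 in nuc, −2.54 ± 0.39) to MIRLET7C (574, 336 and 557 in cyto, 3, 4 and 4 in nuc, −5.22 ± 0.45), with a median of −3.62. All 3 of the MIR106A to MIR363 cluster and all 3 of the MIR106B to MIR25 cluster were lower. So were the 4 tested genes whose precursors bypass Drosha or are spliced introns, MIR320A (−3.49 ± 0.40), MIR484 (−4.16 ± 0.45), MIR1226 (−3.07 ± 0.88) and MIR877. MIR877 had 107, 54 and 49 counts in cyto and 0 in each nuclear library, at least 6.40-fold lower with a floor of 3 counts per library. Lowest by the naming rule were MIR1301, MIR330 and MIR210 (−6.12, −5.59 and −5.58), which rest on at most 5 nuclear counts in all 3 libraries together.

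The MIR17HG cluster was split. This primary transcript holds 6 miRNA hairpins in a row. MIR92A1 had 10529, 6543 and 13166 counts in cyto and 163, 171 and 213 in nuc (−3.96 ± 0.36), and MIR19A had 466, 177 and 1150 in cyto and 16, 35 and 32 in nuc (−2.65 ± 0.50). Both were lower, like the class. MIR18A had 425, 391 and 566 counts in cyto and 330, 382 and 459 in nuc, and MIR20A 953, 504 and 2017 in cyto and 779, 906 and 693 in nuc. Both were higher after TMM scaling (1.58 ± 0.33, adjusted p = 0.000579, and 1.23 ± 0.38, adjusted p = 0.0171). The MIR20A call was lost without siSSB cyto 1 (0.93), siSSB cyto 2 (0.82) or siSSB nuc 1 (1.29). MIR19B1 (0.59 ± 0.32) and MIR17 (0.25 ± 0.38) were not called. Relative to the miRNA reference, MIR18A, MIR20A, MIR19B1 and MIR17 stood 4.77 ± 0.31, 4.66 ± 0.27, 3.75 ± 0.29 and 3.67 ± 0.26 above, a value that does not depend on the scaling between fractions, and MIR92A1 was 0.72 ± 0.19 below.

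The windows differ in what they hold. Without flanks, those of MIR17, MIR18A and MIR20A cover the 3p arm, which is not the arm printed above, and the 5p arm reaches only into a flank. Those of MIR19A, MIR19B1 and MIR92A1 cover the 3p arm that is printed. A MIR17HG feature that ends between the arms of MIR17 (chr13:91349098-91350647) contains miR-17-5p, and it had 1074, 594 and 2349 counts in cyto, close to those of the MIR17 window (chr13:91350630-91350701; 1089, 594 and 2342). In nuc the same feature had 34, 19 and 32 counts, whereas the MIR17 window had 428, 527 and 431. The cytoplasmic counts of MIR17 were thus nearly those of the 5p side, and most of its nuclear counts lay beyond it.

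Other hairpins had a window inside a longer one: 53 longer windows held 66 inner ones. Inner windows carry flanks too and can reach the other arm, so a share near 100% need not be of the named arm. A low share does show reads outside the inner window. MIR15A (34, 12 and 34 counts in cyto, 53, 41 and 68 in nuc, 2.87 ± 0.41) has an inner window on miR-15a-5p with 21, 2 and 26 counts in cyto and 8, 3 and 1 in nuc. This inner window held 61.2% of the summed cytoplasmic and 7.41% of the summed nuclear counts. MIR4449, the miRNA feature furthest toward the nucleus (39, 21 and 13 in cyto, 99, 190 and 100 in nuc, 4.21 ± 0.41, and 7.34 ± 0.57 above the miRNA reference), had 82.2% of its cytoplasmic and 24.2% of its nuclear counts in the window of the mature miRNA. For MIR106B the inner window held 99.9% of the cytoplasmic counts and 7 of 31, 19 of 22 and 9 of 9 nuclear counts, so a low share rested on siSSB nuc 1. MIR16-1, next to MIR15A, was not called (0.40 ± 0.41). Its inner window on miR-16-5p held 98.5% and 93.2%, which does not tell the arms apart. In MIR191, MIR25 and MIR182 the inner window held 100% of the counts in both fractions. Some let-7 genes, all called lower, also had a larger nuclear share in a 3p window, on few nuclear counts. For MIRLET7G this window held 0.127% of the cytoplasmic and 20.7% of the nuclear counts (1, 3 and 2 counts in nuc). The shares were 2.91% and 24.4% for MIRLET7F1, and 0.739% and 14.9% for MIRLET7I. MIRLET7D (10.1% and 0%) and MIRLET7E (100% and 92.3%) went the other way. The fifth feature called higher, MIR3609 (12, 13 and 10 in cyto, 20, 58 and 13 in nuc, 3.09 ± 0.43), overlaps the window of SCARNA28. These shares were chosen for comparison after the values were seen and were not tested.

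**Figure D4:**
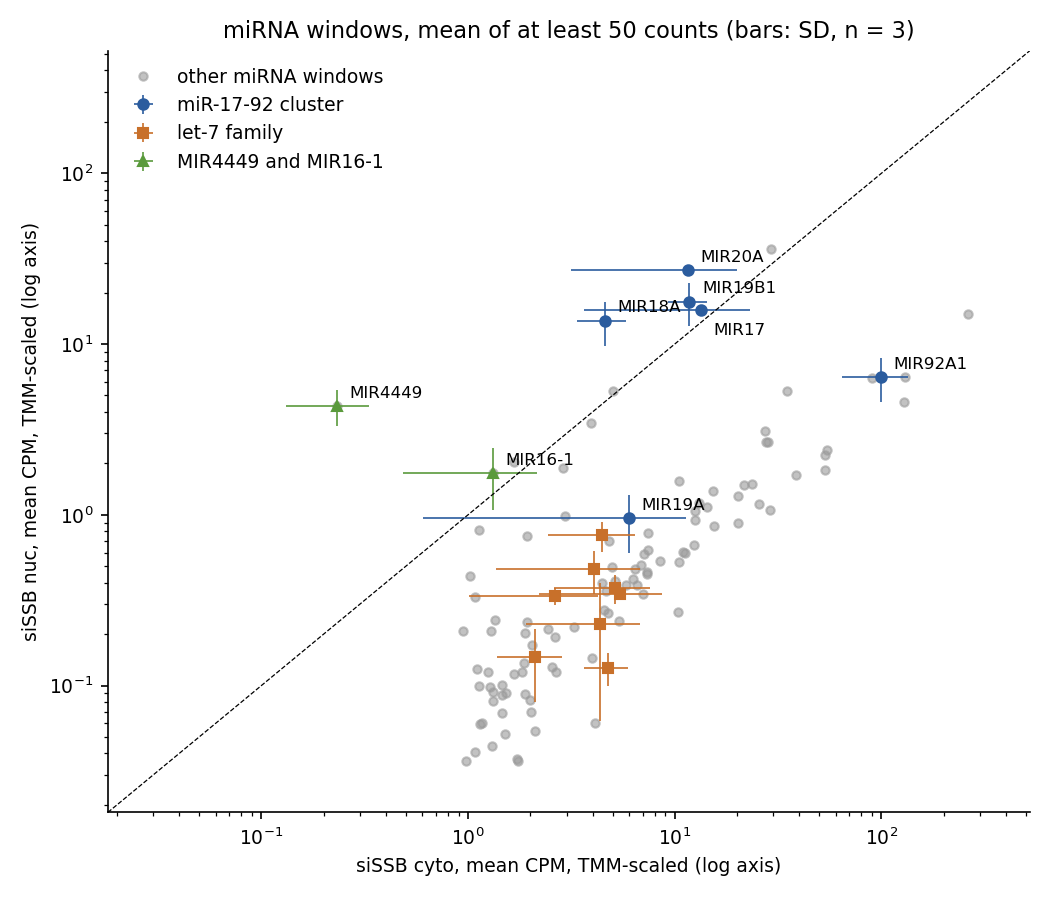
Mean CPM of 114 miRNA features with a mean of at least 50 counts in siSSB cyto (x axis) and siSSB nuc (y axis), both log scales, with SD bars and the line of equal values; the MIR17HG cluster, the let-7 family, MIR4449 and MIR16-1 are marked. Of the 114, 9 lay above the line under the TMM scaling, among them MIR17, MIR18A, MIR20A and MIR19B1.

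Of the 114 windows plotted, 3 shared 20-mers with the mitochondrial genome (MIR12136, MIR6723 and an unnamed one on chrM) and 0 with the 45S rRNA precursor. These 3 stood 3.22, 2.46 and 2.88 above the miRNA reference, and their reads may be counted from either source.

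Features over 500 nt were kept where no feature of at most 500 nt inside them held 50% or more of their counts. Of these 17576 were tested and 2466 called. The rule did not remove every feature that drew its counts from a small RNA, as the values below show. Over all features 6655 of 26274 were called. By the naming rule 295 of the long features were higher in nuc and 277 lower, and only higher ones are named in this paragraph. Of the higher ones 158 overlapped a class feature, and of the lower ones 129, so many may not be long RNAs in their own right. SNHG32 (8.89 ± 0.38) led the higher ones, and 99.8% of its counts were those of SNORD48 and SNORD52. In lnc-TRIM52-2 (7.84 ± 0.39) 99.2% were those of SNORD96A, and in SNHG5 (7.72 ± 0.38) nearly all were those of SNORD50A and SNORD50B. AL049646.2 on chromosome 20 overlapped no class feature and had 0, 3 and 0 counts in cyto and 108, 154 and 66 in nuc (8.28 ± 0.62).

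Whether these differences were particular to SSB-depleted cells was tested with the control nuc and cyto libraries in 1 fit of 12, as the difference between both nuclear to cytoplasmic values. Of 37493 features, 5 were called (0.0133%), and 1837 had an unadjusted p under 0.05. The latter is near the number that this threshold passes when no feature differs. With the replicate number as a block 9 features were called. Of 987 class features with a mean of at least 50 counts, 939 had the same sign in siSSB and control cells, and the median absolute difference between the values was 0.487. These points share the 6 libraries of a treatment. Class totals whose difference did not pass were those of C/D snoRNA (5.82 in siSSB and 5.80 in control), tRNA (−2.01 and −2.11), Y RNA (−4.08 and −3.16, adjusted p of the difference = 0.215) and miRNA (−2.91 and −2.47). With the summed snoRNA as scale the Y RNA and 5S rRNA differences were called.

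The one class feature called was tRNA-Tyr-GTA-3-1, the tyrosine tRNA gene printed above. In control cells it had 586, 316 and 1052 counts in cyto and 64, 44 and 64 in nuc, −1.56 ± 0.34 in that fit. In siSSB cells, with 171, 159 and 170 in cyto and 167, 203 and 175 in nuc, it was 1.84 ± 0.34. The difference was 3.40 ± 0.48 (adjusted p = 0.000298), and it passed in every alternative run, with an adjusted p of at most 0.0152. Its cytoplasmic counts were lower and its nuclear counts higher in all 3 siSSB libraries than in all 3 control ones.

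The other 4 were long features. HSALNG0020274 lies over exons of SSB itself (chr2:169806811-169811069, + strand) and lnc-PRKAB2-5 over the SSB pseudogene SSBL4P (chr1:147082313-147083603, − strand). HSALNG0020274 had 3145, 983 and 3304 counts in the cytoplasm of siSSB cells and 13, 5 and 14 in their nuclei, against 32, 25 and 30 and 5, 1 and 4 in control (−4.81 ± 0.83, adjusted p = 0.00772). lnc-PRKAB2-5 had 2493, 750 and 2108 and 10, 7 and 13 in siSSB, and 6, 3 and 7 and 1, 4 and 2 in control (−6.37 ± 0.97, adjusted p = 0.000988). Whether their reads came from the siRNA or from cellular RNA was not tested, so these values may not be of a cellular RNA. In both, every siSSB cyto library lay above every library of the other 3 groups. Both were known from earlier results of these data. The call of HSALNG0020274 was lost without control nuc 1, control nuc 3 or siSSB nuc 2, and that of lnc-PRKAB2-5 without control nuc 2 or control nuc 3. HSALNG0103479 (5.23 ± 0.94) and HSALNG0085924 (3.96 ± 0.72, both adjusted p = 0.0138) were called as well. The siSSB nuc counts of the first (458, 219 and 10) overlapped its cyto counts (39, 12 and 115). The second had only 9, 10 and 5 counts in siSSB nuc and 2, 3 and 1 in control nuc. Both calls were lost with the summed snoRNA as scale and without any one control nuc library, siSSB nuc 1 or siSSB nuc 2.

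Of 19 class totals 2 differed between siSSB and control cells. snaR-A summed to 10249, 10134 and 20075 counts in control cyto and 9259, 4914 and 12773 in control nuc, or 112, 112 and 146 CPM and 282.0, 174 and 491 CPM in the fit of 12, where siSSB libraries had 72.4, 87.1 and 22.05 CPM in cyto and 44.9, 58.8 and 63.96 in nuc. It was thus higher in every control nuc than in every control cyto library (1.36), while the siSSB fractions overlapped (−0.11). The difference was −1.47 ± 0.50 (adjusted p = 0.0468). snaR-B to snaR-I gave 2.11 in siSSB and 4.10 in control (−1.999 ± 0.60, adjusted p = 0.0311), from 17 to 102 counts in the siSSB libraries. Both calls were lost when the column sum, the class sum or the summed miRNA was the scale and when siSSB cyto 1, siSSB nuc 1 or siSSB nuc 2 was left out. The snaR-A call was also lost with the replicate block and without control nuc 1, control nuc 3, siSSB cyto 2 or siSSB nuc 3, and the snaR-B to snaR-I call with the summed snoRNA as scale and without control nuc 2.

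**Figure D5:**
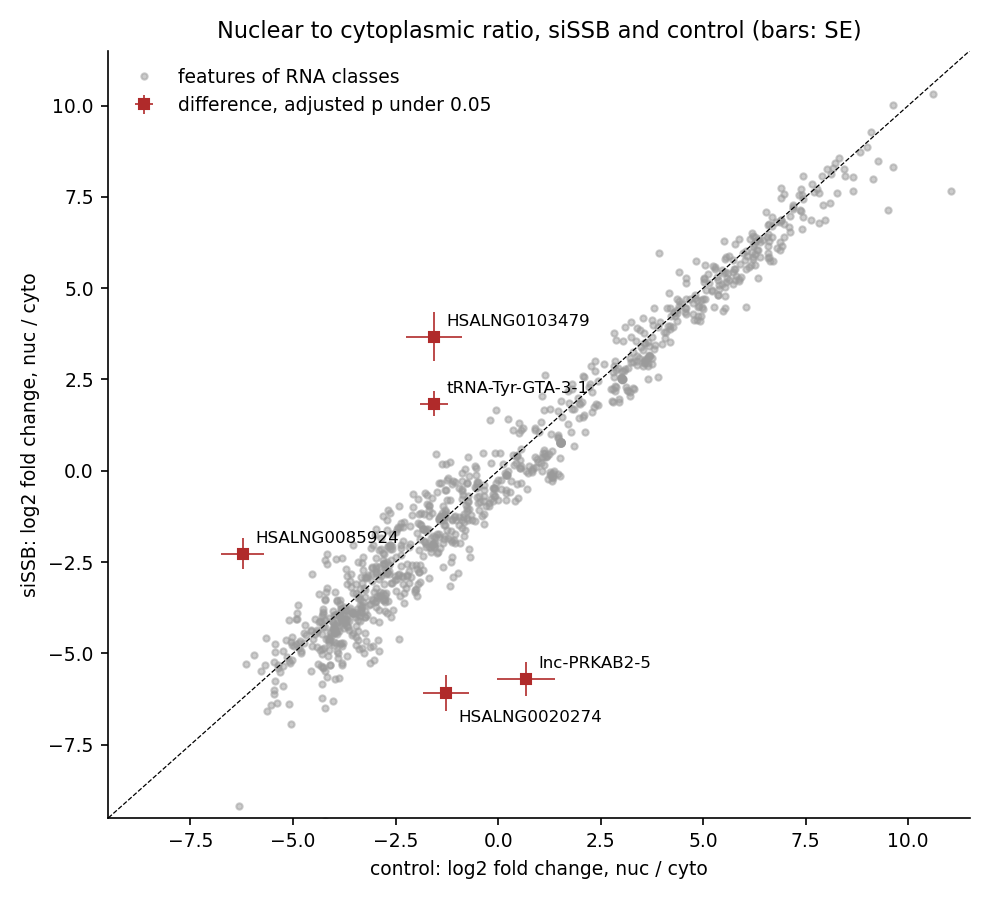
Log2 fold change of nuc against cyto in siSSB cells against the same in control cells for 987 class features with a mean of at least 50 counts and the 5 features called for a difference, which have SE bars; the line marks equal values. tRNA-Tyr-GTA-3-1 lay at −1.56 in control and 1.84 in siSSB, while 939 of the 987 had the same sign in both.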

How the data were processed

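Small RNA was sequenced from HEK293T cells given an SSB or a scramble siRNA, and the nuc and cyto libraries were compared as labelled, 3 in each group. The deposited values are raw counts of reads per noncoding RNA feature on hg38, 18 columns over 175935 features. The submitters' processing notes name Bowtie2 and bedtools, and their versions, trimming and treatment of multi-mapping reads are not given in the sources used here. Windows carry 25-nt flanks and often overlap or repeat one another, so a read can be counted in several features and copies of a family share reads.

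Counts were tested in R 4.3.3 with the quasi-likelihood test of edgeR 4.0.16 (limma 3.58.1), TMM factors and the filterByExpr filter, without a replicate term. The calls used an adjusted p (Benjamini-Hochberg) under 0.05 over all features tested. Class totals entered the same fit, with overlapping windows taken once. The within-class fit used features of at most 500 nt and the class sum times TMM factors of the class as library size, for classes with at least 10 tested features. The difference between siSSB and control was an interaction of fraction and treatment over 12 libraries. Single features were named from a fixed list and, in each class and direction, as up to 3 called features that averaged 50 counts or more and whose groups did not overlap, ranked by the log2 fold change or by the within-class value (5 for long features and for the interaction). The members and lists were chosen with earlier results of these data known. DESeq2 1.42.0, other scalings, other filters, a replicate block and leaving out each library were alternatives. The tests were checked on simulated counts. With 3 against 3 libraries an exact permutation test cannot go below p = 0.1, so none is given. One count was worth 0.00857 to 0.0106 CPM in cyto and 0.0290 to 0.0397 in nuc, which sets the precision at low levels. MT-RNR1 and the total RNA libraries were not used here. One sequence is not reported here.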

Additional observations from a re-analysis of the deposited data

Results flagged for a closer look

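The nuclear to cytoplasmic difference was not the same in siSSB and control cells, by edgeR's test of the interaction, for 5 features and 2 class totals. On the log2 scale, as siSSB minus control, these were tRNA-Tyr-GTA-3-1 (3.40), HSALNG0103479 (5.23), HSALNG0085924 (3.96), HSALNG0020274 (−4.81), lnc-PRKAB2-5 (−6.37), the snaR-A total (−1.47) and the snaR-B to snaR-I total (−1.999). Of these, tRNA-Tyr-GTA-3-1 kept its call in all alternatives run.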

How the results depend on the processing

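The within-class calls numbered 597 to 949 and the class totals called 12 to 19 in the alternatives, against 766 and 16. The count of changed features depended on the scale: 25876 (665 higher and 25211 lower) with the column sum, 24743 with the class sum (1081 and 23662), 25837 with the summed snoRNA (190 and 25647) and 17507 with the summed miRNA (17106 and 401), against 6655. It was 1427 among features of at most 500 nt with identical ones taken once, since fewer were tested. Without 1 library it ran from 5066 to 6328. Features that differed between siSSB and control numbered 3 with the summed snoRNA, 12 with no filter and 1 to 24 without 1 library, 24 without control cyto 3 and 1 without control nuc 3, against 5. Class totals that did so numbered 0 with the column sum, the class sum or the summed miRNA, 3 with the summed snoRNA (Y RNA, 5S rRNA and snaR-A), and 0 to 2 without 1 library, against 2. The cause was not tested.

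Values named by a family (U1, U2, U4, U5, U6, 7SL, 5S, snaR-A) are of its most counted copy. With the column sum as scale the sign turned for RMRP (−1.62), RPPH1 (−1.74), VTRNA1-3 (−3.76), TERC (−1.999), MALAT1 (−3.30), NEAT1 (−2.99), SNORD3A (−0.406), RNU4ATAC (−0.991), RNU11 (−0.0842), RNU12 (−2.75), SCARNA2 (−2.22), U1 (−0.588), U2 (−2.20), U4 (−2.67), U5 (−0.801), U6 (−0.745), 7SL (−0.770), 5S (−3.35), snaR-A (−3.76), the total of scaRNA (−1.17), the total of U6 and U6atac (−1.95), the total of other snRNA (−1.43), the total of 7SL (−1.07), the total of 5S rRNA (−2.996), the total of other rRNA (−3.54) and the total of snaR-B to snaR-I (−1.69). With the class sum the sign turned for RMRP (−0.0389), RPPH1 (−0.166), VTRNA1-3 (−2.15), TERC (−0.402), MALAT1 (−1.69), NEAT1 (−1.39), RNU12 (−1.14), SCARNA2 (−0.614), U2 (−0.576), U4 (−1.05), 5S (−1.71), snaR-A (−2.15), the total of U6 and U6atac (−0.320), the total of 5S rRNA (−1.37), the total of other rRNA (−1.93) and the total of snaR-B to snaR-I (−0.0583). With the summed snoRNA the sign turned for RMRP (−3.66), RPPH1 (−3.77), VTRNA1-3 (−5.82), TERC (−4.04), MALAT1 (−5.35), NEAT1 (−5.04), SNORD3A (−2.46), SNORD118 (−1.44), RNU4ATAC (−3.04), RNU11 (−2.11), RNU12 (−4.78), SCARNA2 (−4.26), U1 (−2.61), U2 (−4.25), U4 (−4.73), U5 (−2.84), U6 (−2.80), 7SL (−2.81), 5S (−5.41), snaR-A (−5.78), the total of scaRNA (−3.22), the total of U6 and U6atac (−4.02), the total of other snRNA (−3.47), the total of 7SL (−3.12), the total of 5S rRNA (−5.06), the total of other rRNA (−5.59) and the total of snaR-B to snaR-I (−3.76). With the summed miRNA the sign turned for RN7SK (1.31), VTRNA1-1 (0.731), RNU7-1 (1.24), the total of tRNA (0.644), the total of tRX (1.89), the total of mitochondrial tRNA (1.25), the total of vault RNA (0.0453), the total of 7SK (1.31) and the total of snaR-A (2.25). With no filter beyond 1 count it turned for VTRNA1-3 (−0.330), snaR-A (−0.320) and the total of other rRNA (−0.121), with the DESeq2 Wald test for VTRNA1-3 (−0.138) and snaR-A (−0.102), and with the class total as library size for the within-class value of ENSSARG00000015868.1 (−0.787). Leaving out 1 library turned the sign in some cases of VTRNA1-3 (range −0.171 to 0.255), snaR-A (−0.389 to 0.387), the snaR-A total (−0.489 to 0.289) and the within-class value of MT-TW (−0.0472 to 0.521).

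Same-numbered siSSB libraries deviated together only weakly (Pearson's r of 0.011, 0.162 and 0.059 over 3636 features). For siSSB nuc 2 and nuc 3 the same-numbered cyto library was the closest, while nuc 1 was closest to cyto 3 (0.118). Same-numbered control libraries, which enter only the comparison with siSSB, gave 0.143, 0.220 and 0.180, each the highest for its nuc library. Whether same-numbered nuc and cyto libraries form pairs is not settled by these values. With a replicate block 6419 features, 779 within classes, 16 class totals, 9 features that differed between siSSB and control and 1 such class total were called, and the snaR-A total turned to 0.144.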
